A study of Homo sapiens with 12 samples.

Results

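Expression of 10 genes of the TAL1 complex and its circuit was examined: TAL1, LMO1, LMO2, LDB1, GATA3, RUNX1, MYB, TCF3, TCF12 and ETS1. They were found by symbol among the 60671 genes of the deposited table, and all 10 were present. RNA was sequenced from 12 libraries labelled Jurkat, a human T cell acute lymphoblastic leukemia (T-ALL) line, in 4 groups of 3. NC cells, given as WT in the labels and as carrying a GFP vector in the study's methods, were treated with DMSO (NC+DMSO) or vincristine (NC+VCR). PTPN21 cells, which carried a lentiviral FLAG-tagged PTPN21 driven by the SFFV promoter, were treated likewise (PTPN21+DMSO, PTPN21+VCR). Treatment lasted 48 h in all 4 groups. Vincristine (VCR) blocks microtubule assembly, and its dose in these libraries is not given in the sources used here. Whether the 3 libraries of a group came from separate cultures is not stated either, so that p-values measure the spread between these libraries, which may be technical.

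TAL1 is a basic helix-loop-helix (bHLH) factor that binds DNA as a heterodimer with an E protein such as TCF3 or TCF12. LMO proteins and LDB1 do not bind DNA themselves and bridge the TAL1 dimer to a GATA factor. In T-ALL with ectopic TAL1, this complex works with GATA3, RUNX1, MYB and ETS1, and the factors bind and activate one another's genes in an interconnected loop. In erythroid and megakaryocytic cells, TAL1, LMO2 and LDB1 form the same kind of complex with GATA1 or GATA2.

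Values were FPKM, fragments scaled to gene length and library total, so levels of different genes can be set side by side. The fragments per library, estimated from the steps in which FPKM times length falls, were 28600000 to 32300000 in NC+DMSO and 33200000 to 35500000 in NC+VCR. They were 44500000 to 47300000 in PTPN21+DMSO and 40600000 to 44000000 in PTPN21+VCR. The groups did not overlap, so depth cannot be told apart from construct or from VCR. With VCR the libraries were deeper in NC cells and shallower in PTPN21 cells. Whether 1 step stands for 1 or 2 fragments could not be settled, and the order of the libraries is firmer than the depths themselves. Pearson's correlation between libraries of a group was 0.939 to 0.976 across 11591 genes, which are not independent replicates. PTPN21 itself was at 4.34 to 10.5 FPKM in the PTPN21 libraries and at no more than 0.569 in the NC libraries, as the labels have it. It was lower with VCR in PTPN21 cells, without overlap: 7.93 to 10.5 FPKM in PTPN21+DMSO and 4.34 to 6.53 in PTPN21+VCR (log2 fold change -0.55, limma adjusted p = 0.0770). In NC cells it was at 0.0212 to 0.0934 FPKM with DMSO and at 0.160 to 0.569 with VCR.

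The T cell label was checked against 8 T lineage markers and did not hold. CD247, LCK, CD28 and CD5 were listed at 0 in all 12 libraries, and 6 of the 8 markers never reached 1 FPKM. CD3E, a subunit of the CD3 complex, peaked at 0.146 FPKM. CD3D alone was present, at 61.8 to 139.7 FPKM, and the other 7 markers together gave 0 to 1.64 FPKM per library. The 3 T cell receptor constant region genes TRAC, TRBC1 and TRBC2, added after the markers had been seen, summed to 1.11 to 5.39 FPKM.

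Erythroid and megakaryocytic markers were present in every library. Without VCR, their 7 genes summed to 190 to 199.3 FPKM in NC cells and to 253.1 to 366.9 in PTPN21 cells. After VCR the sums were 86.4 to 101.6 FPKM in NC cells and 105.8 to 126.1 in PTPN21 cells. HBA1, HBA2, KLF1 and ITGA2B were among the genes present, while GP9 was listed at 0 in all 12 libraries and HBB peaked at 1.66 FPKM. The fetal and embryonic globin genes HBG1, HBG2, HBZ and HBE1, also added afterwards, summed to 866 to 4107 FPKM. HBA1 and HBA2, like HBG1 and HBG2, are near-identical copies whose reads can be split between them. The B lineage sum was 0.234 to 1.84 FPKM and the myeloid sum 10.1 to 20.4 FPKM, most of it LYZ. All 15 genes checked that every cell uses were above 0 in all 12 libraries. Since all libraries go against the label alike, none could be set aside, and they are called here by their labels, without a cell type. In bulk RNA, fewer cells of a type and less RNA per cell cannot be told apart.

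**Figure D1:**
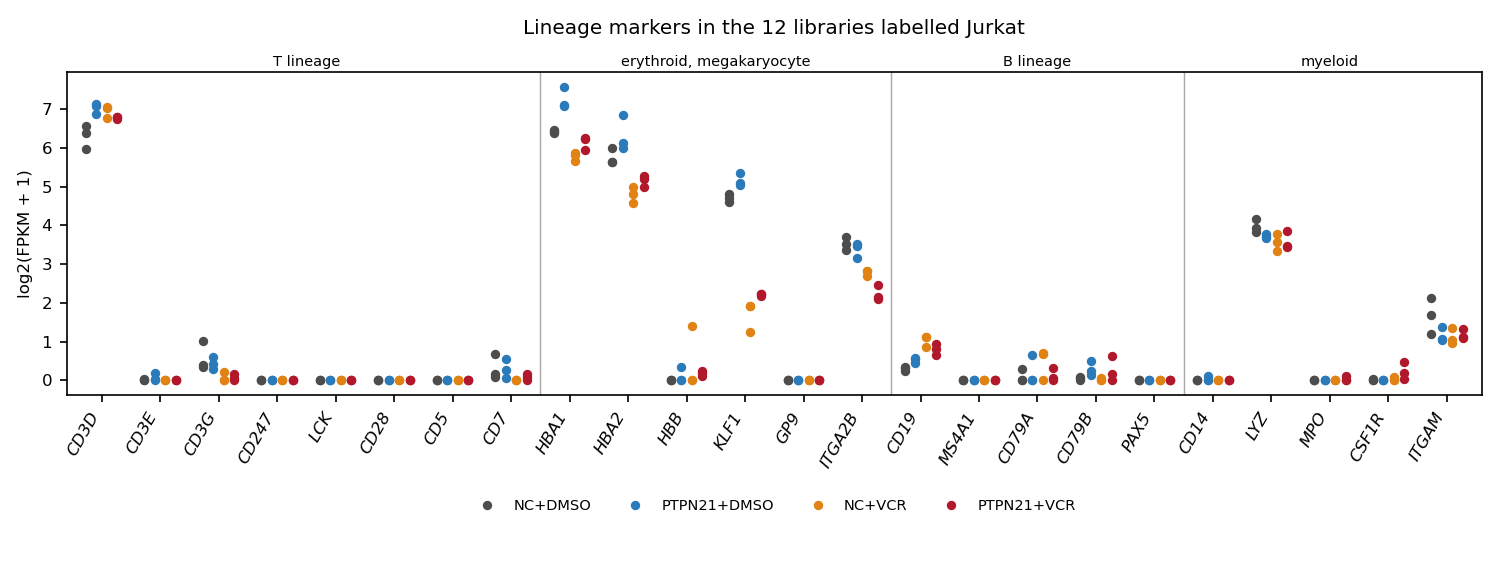
Level, as log2(FPKM + 1), of 24 lineage markers, with 1 point for each of the 12 libraries and colours for the 4 groups. CD3D, at 61.8 to 139.7 FPKM, was the only T lineage marker above 2 FPKM, while HBA1, HBA2, KLF1 and ITGA2B were present in all libraries.

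Not all genes of the circuit were present in these libraries. TAL1, LMO2, LDB1, TCF3, TCF12, MYB and RUNX1 were found in all 12 libraries at 1.14 FPKM or more. LMO1, which can stand in for LMO2 as the bridging protein in T-ALL, was listed at 0 in all 12. GATA3, the GATA factor of T cells, was at 0.141, 0 and 0.068 FPKM in NC+DMSO and at 0.184, 0 and 0 in PTPN21+DMSO, and was listed at 0 in all 6 VCR libraries. ETS1, an ETS family factor of lymphoid cells, lay at 0.802, 0.534 and 2.33 FPKM in NC+DMSO and between 0.372 and 1.21 in the other 9 libraries. Of the 10 genes, 7 reached the mean of 1 FPKM needed for testing. GATA3, ETS1 and LMO1 did not, and without that minimum neither GATA3 nor ETS1 passed in any of the 5 comparisons.

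Some relatives of GATA3, ETS1, TAL1 and LMO1 were present and others were not. GATA1, the erythroid GATA factor that occupies the place of GATA3 in the erythroid complex, was at 66.3, 76.9 and 57.4 FPKM in NC+DMSO and at 106.5, 85.0 and 85.7 in PTPN21+DMSO. GATA2, a GATA factor of blood progenitors, was at 26.9, 23.6 and 36.4 FPKM in NC+DMSO. ETS2 ran from 4.75 to 15.0 FPKM over the 12 libraries, above ETS1 in every one. LYL1, the closest bHLH relative of TAL1, exceeded TAL1 in every library, with a ratio of LYL1 to TAL1 of 3.57 ± 0.575 (SD, n = 3) in NC+DMSO and 5 ± 0.896 in PTPN21+DMSO, without overlap. After VCR the ratio was 3.62 ± 0.962 in NC cells and 3.75 ± 0.125 in PTPN21 cells. TAL2, LMO3, FLI1, ERG and RUNX3 were at or near 0, none above 0.18 FPKM.

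**Figure D2:**
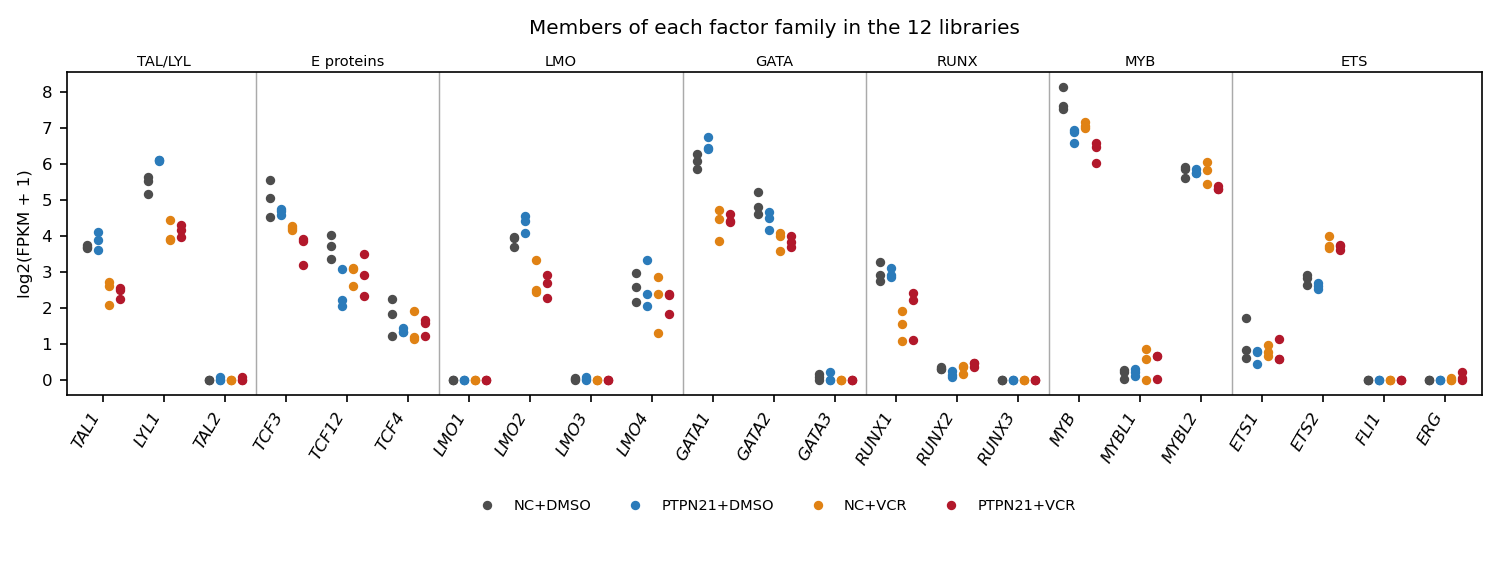
Level, as log2(FPKM + 1), of the members of 7 factor families, with 1 point per library and colours for the 4 groups. GATA1 and GATA2 were present where GATA3 was not, LMO2 and LMO4 where LMO1 was not, and ETS2 stood above ETS1 in all 12 libraries.

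Ordered by level per length, MYB led in all 4 groups. In NC+DMSO the order was MYB (220.8 ± 53.0 FPKM, SD, n = 3), LDB1 (58.23 ± 13.04), TCF3 (33.4 ± 12.1), LMO2 (13.7 ± 1.59), TCF12 (12.3 ± 3.01), TAL1 (12 ± 0.357) and RUNX1 (7.04 ± 1.48). LMO2, TCF12 and TAL1 overlapped as neighbours, whereas the libraries of MYB, LDB1 and TCF3 were separate from the next gene down. In NC+VCR, TCF3 (17.7 ± 0.804 FPKM) and LDB1 (13.9 ± 4.04) overlapped, as did TCF12, LMO2 and TAL1. In PTPN21+VCR every neighbour from TCF3 down to RUNX1 overlapped the next, and MYB alone stood apart, at 82.2 ± 15.8 FPKM.

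**Figure D3:**
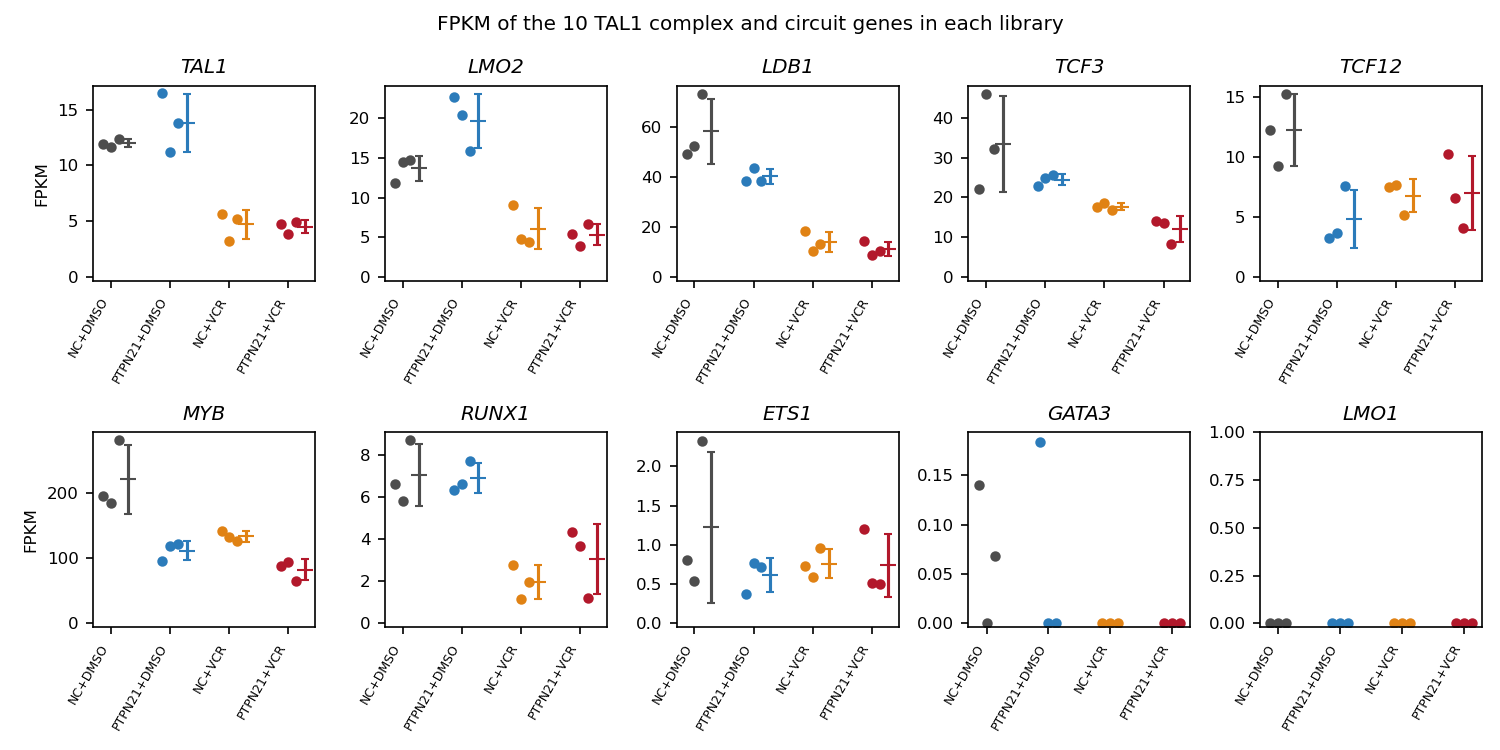
FPKM of each of the 10 genes, 1 panel per gene with its own axis, with points for the 3 libraries of each group and a bar for mean ± SD (none for GATA3 and LMO1, mostly listed at 0). TAL1, LMO2 and LDB1 are lower in all VCR libraries than in all DMSO libraries of the same cells, and MYB is highest in NC+DMSO.

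TAL1 (ENSG00000162367), the DNA-binding core of the complex, is placed by GENCODE release 29 (GRCh38) on chromosome 1, 47216290 to 47232220, minus strand. Its FPKM was 11.9, 11.7 and 12.4 in NC+DMSO and 16.5, 11.2 and 13.8 in PTPN21+DMSO. After VCR it was 5.67, 3.23 and 5.19 in NC cells and 4.74, 3.83 and 4.95 in PTPN21 cells. Every VCR library was below every DMSO library, and within each treatment the NC and PTPN21 libraries overlapped. An antisense gene, AL135960.1, shares 845 exonic bases with TAL1, and it never exceeded 0.145 FPKM.

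LMO2 (ENSG00000135363, chromosome 11, 33858576 to 33892289, minus strand) encodes the LIM-only bridging protein. It was at 11.9, 14.5 and 14.8 FPKM in NC+DMSO and at 22.7, 20.5 and 15.9 in PTPN21+DMSO, where all 3 libraries were above all of NC+DMSO. After VCR, LMO2 was at 9.11, 4.71 and 4.44 FPKM in NC cells and at 5.45, 3.91 and 6.64 in PTPN21 cells, again below every DMSO library. The ratio of LMO2 to TAL1, which does not depend on library scaling, stayed between 0.856 and 1.82 in all 12 libraries.

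LDB1 (ENSG00000198728, chromosome 10, 102107560 to 102120453, minus strand) encodes the adaptor that dimerizes and brings distant complexes together. Its values were 49.1, 52.4 and 73.2 FPKM in NC+DMSO and 38.5, 43.7 and 38.4 in PTPN21+DMSO. They were 18.4, 10.4 and 12.9 FPKM in NC+VCR and 14.2, 8.71 and 10.3 in PTPN21+VCR. Every VCR library was below every DMSO library. The ratio of LDB1 to TAL1 was 4.84 ± 0.95 (SD, n = 3) in NC+DMSO and 2.99 ± 0.434 in NC+VCR, and these groups did not overlap. In PTPN21 cells it was 3 ± 0.797 with DMSO and 2.45 ± 0.476 with VCR, and these overlapped.

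The E proteins TCF3 and TCF12 are the partners with which TAL1 dimerizes. TCF3 (ENSG00000071564, chromosome 19, 1609290 to 1652605, minus strand) was at 22.0, 46.1 and 32.1 FPKM in NC+DMSO and at 22.9, 24.8 and 25.7 in PTPN21+DMSO. It was at 17.7, 18.5 and 16.9 FPKM in NC+VCR and at 14.1, 13.6 and 8.16 in PTPN21+VCR, so that each VCR group lay below its DMSO group and PTPN21+VCR lay below NC+VCR. TCF12 (ENSG00000140262, chromosome 15, 56918623 to 57299281, plus strand) was at 12.3, 9.27 and 15.3 FPKM in NC+DMSO and at 3.20, 3.65 and 7.57 in PTPN21+DMSO. After VCR, TCF12 was at 7.48, 7.66 and 5.20 FPKM in NC cells and at 10.2, 6.55 and 4.12 in PTPN21 cells, and these overlapped. NC+DMSO lay above PTPN21+DMSO and above NC+VCR in every library, and only PTPN21+VCR reached into its range.

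MYB (ENSG00000118513, chromosome 6, 135181315 to 135219173, plus strand) encodes a factor of progenitor growth in blood. It was at 196, 185 and 282 FPKM in NC+DMSO and at 95.0, 118 and 122 in PTPN21+DMSO. In NC+VCR it was at 142, 132 and 126 FPKM, and in PTPN21+VCR at 87.7, 94.4 and 64.4. The PTPN21 libraries were below the NC libraries under either treatment, and the VCR libraries below the DMSO libraries in either kind of cells. MYB-AS1, which shares 103 exonic bases with MYB on the opposite strand, was listed at 0 throughout.

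RUNX1 (ENSG00000159216, chromosome 21, 34787801 to 36004667, minus strand) encodes the DNA-binding subunit of core binding factor. It was at 6.61, 5.82 and 8.68 FPKM in NC+DMSO and at 6.34, 6.62 and 7.73 in PTPN21+DMSO. After VCR it was at 2.77, 1.14 and 1.97 FPKM in NC cells and at 4.34, 3.66 and 1.19 in PTPN21 cells. VCR libraries were below DMSO libraries in both, and NC and PTPN21 overlapped under both treatments.

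NC+VCR against NC+DMSO shows the response of control cells to VCR. TAL1, its bridging partners LMO2 and LDB1, the E protein TCF3, RUNX1 and MYB all fell, 6 of the 7 tested genes, and none rose. Among all genes tested 36.2% passed in this comparison and 28.3% passed as lower. All 7 genes had NC+VCR libraries below every NC+DMSO library, which 33.9% of all genes did. The median log2 fold change was -1.11 over the 7 genes and -0.36 over all genes tested. Of the genes that passed, 21.9% were higher, and 56.9% under median ratio scaling, which moved the median of all genes to -0.03.

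LDB1 had the largest fall of the 7 in NC cells, with a log2 fold change of -2.00 (SE 0.225, limma adjusted p = 6.74e-05). RUNX1 followed at -1.46 (SE 0.325, adjusted p = 0.00482), then TAL1 at -1.22 (SE 0.208, adjusted p = 0.00105) and LMO2 at -1.11 (SE 0.256, adjusted p = 0.0060). TCF3 (-0.82, SE 0.247, adjusted p = 0.0225) and MYB (-0.70, SE 0.181, adjusted p = 0.0106) fell by less. TCF12 did not pass, at -0.76 (SE 0.332, adjusted p = 0.0913). Relative to the median of all genes, the differences were -1.64 for LDB1, -0.86 for TAL1, -0.75 for LMO2 and -0.34 for MYB. Under median ratio scaling LDB1, RUNX1 and TAL1 passed and LMO2, TCF3 and MYB did not, all 6 still lower. TCF3 also missed the threshold without NC+DMSO replicate 2 (-0.56, adjusted p = 0.0809), without NC+DMSO replicate 3 (adjusted p = 0.0538) or without NC+VCR replicate 3 (adjusted p = 0.0545), and with no filter (adjusted p = 0.0630) or only the groups compared (adjusted p = 0.0534).

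PTPN21+VCR against PTPN21+DMSO shows the response to VCR in the PTPN21 overexpression group, from other libraries. TAL1, LMO2, LDB1, RUNX1 and TCF3 fell, 5 of the 7 tested genes, against 28.5% of all genes passing and 19.3% passing as lower. In 6 of the 7 genes no library overlapped between the groups, all lower, which 33.3% of all genes showed. The median log2 fold change was -1.05 over the 7 genes and -0.17 over all genes tested.

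In these cells LDB1 fell by 1.79 on the log2 scale (SE 0.225, limma adjusted p = 0.000165), LMO2 by 1.72 (SE 0.256, adjusted p = 0.000509) and TAL1 by 1.42 (SE 0.208, adjusted p = 0.000453). RUNX1 (-1.05, SE 0.325, adjusted p = 0.0299) and TCF3 (-1.01, SE 0.247, adjusted p = 0.00967) followed. MYB was lower without overlap and did not pass (-0.45, SE 0.181, adjusted p = 0.0842). Its margin was narrow, with 94.41 FPKM in PTPN21+VCR replicate 2 against 94.97 in PTPN21+DMSO replicate 1. TCF12 overlapped (0.46, SE 0.332, adjusted p = 0.330). RUNX1 passed in 13 of 18 other settings. Without PTPN21+VCR replicate 3 it was at -0.66 with an adjusted p of 0.107, and it also missed the threshold when PTPN21+DMSO replicate 1, 2 or 3 was left out (adjusted p = 0.0624, 0.0664 and 0.0916). MYB passed without NC+DMSO replicate 3 (adjusted p = 0.0416).

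**Figure D4:**
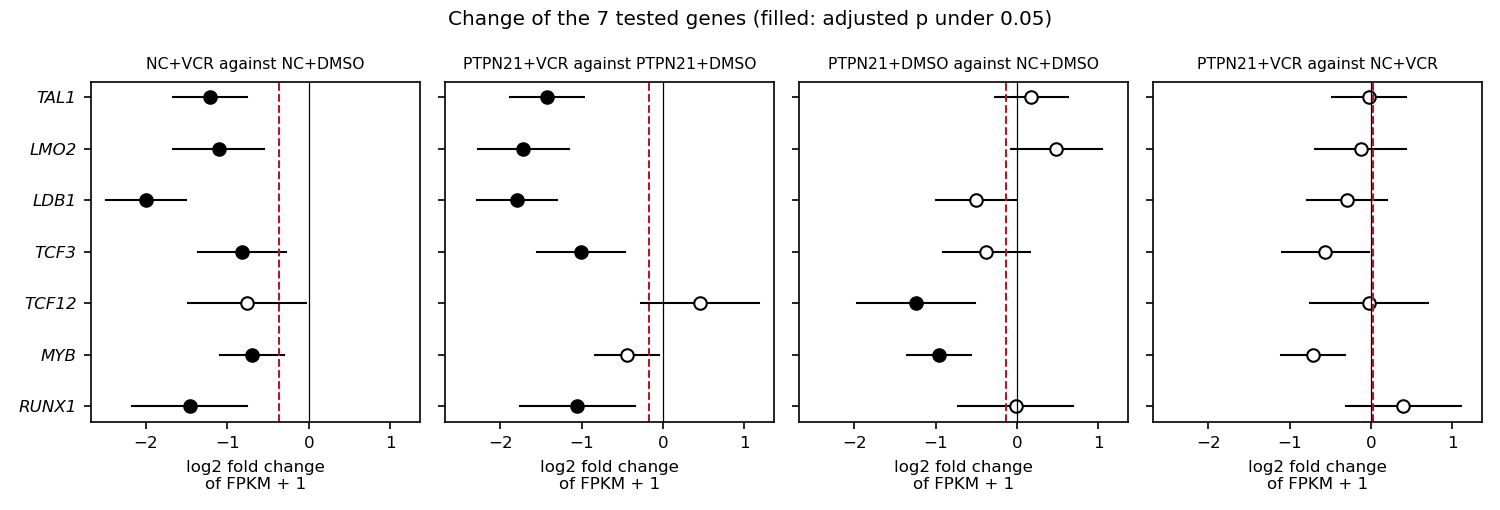
Log2 fold change of FPKM + 1 (points) with 95% confidence intervals (lines) for the 7 tested genes in 4 comparisons. Filled points passed an adjusted p of 0.05 in limma, and the dashed line is the median of all 11591 genes. After VCR 6 genes fell in NC cells and 5 in PTPN21 cells, while only MYB and TCF12 passed for PTPN21 under DMSO and none under VCR.

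In the erythroid complex, GATA1 and TAL1 act together on genes such as KLF1, itself a master regulator of erythroid genes. GATA1 fell with TAL1, to 25.3, 13.5 and 21.3 FPKM in NC+VCR (-1.72, SE 0.203, adjusted p = 9.12e-05) and to 19.8, 20.5 and 23.5 in PTPN21+VCR (-2.07, SE 0.203, adjusted p = 2.55e-05). KLF1 was at 23.4, 26.9 and 24.9 FPKM in NC+DMSO and at 2.80, 2.80 and 1.39 in NC+VCR, a log2 fold change of -3.00 (SE 0.194, adjusted p = 1.27e-06). All 5 tested erythroid and megakaryocytic markers, KLF1, HBA1, HBA2 and ITGA2B among them, fell in both VCR comparisons, where 28.3% and 19.3% of all genes passed as lower. HBG1, HBG2 and HBZ fell in both as well, while HBE1 was higher in every NC+VCR library than in every NC+DMSO library without passing (0.49, SE 0.223, adjusted p = 0.103). The erythroid and megakaryocytic sums above fell after VCR with the circuit genes. Other lineage sums rose, fell or overlapped, depending on the list and the cells. The T lineage sum, nearly all CD3D, was 62.2 to 95.4 FPKM in NC+DMSO and 107.3 to 131.3 in NC+VCR. CD3D passed as higher there (0.64, SE 0.150, limma adjusted p = 0.00655) and did not pass in PTPN21 cells (-0.24, adjusted p = 0.248). The B lineage sum was 0.234 to 0.544 FPKM in NC+DMSO and 1.18 to 1.84 in NC+VCR. The myeloid sum was lower after VCR in NC cells, 14.42 to 20.4 FPKM in NC+DMSO and 10.14 to 14.35 in NC+VCR. In PTPN21 cells the T lineage sum was lower, 116.4 to 140.5 FPKM with DMSO and 107.2 to 111 with VCR. There the B lineage sum (0.557 to 1.16 and 0.837 to 1.31) and the myeloid sum (13.5 to 13.9 and 11.6 to 14.7) overlapped. The part of these markers in the result was not tested. The ratio of GATA1 to TAL1 was 5.59 ± 0.98 (SD, n = 3) for NC+DMSO and 4.25 ± 0.196 for NC+VCR. For PTPN21+DMSO it was 6.74 ± 0.717 and for PTPN21+VCR 4.76 ± 0.583.

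Promoter windows are shown for 2 circuit genes that fell after VCR, TAL1 and LDB1, and for LYL1 and KLF1, which fell with them. They were chosen after the values were seen. Each runs from 250 bases before to 50 bases after a RefSeq gene start (GRCh38.p14), 5′ to 3′ on the minus strand, and capitals mark the GATA hexamers (AGATAA or AGATAG, and likewise TGATAA or TGATAG) on either strand. The positions are chr1:47232286-47232585 for TAL1, chr10:102114953-102115252 for LDB1, chr19:13102809-13103108 for LYL1 and chr19:12887152-12887451 for KLF1. The TAL1 window lies just upstream of the GENCODE gene and that of LDB1 within its gene, since RefSeq and GENCODE place these starts differently.
TAL1: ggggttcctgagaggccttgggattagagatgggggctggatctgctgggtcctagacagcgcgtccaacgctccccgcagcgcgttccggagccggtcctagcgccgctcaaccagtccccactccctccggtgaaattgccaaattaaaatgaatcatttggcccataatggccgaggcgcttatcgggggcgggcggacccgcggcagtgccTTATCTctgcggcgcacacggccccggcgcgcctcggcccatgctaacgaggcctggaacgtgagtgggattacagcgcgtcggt
LDB1: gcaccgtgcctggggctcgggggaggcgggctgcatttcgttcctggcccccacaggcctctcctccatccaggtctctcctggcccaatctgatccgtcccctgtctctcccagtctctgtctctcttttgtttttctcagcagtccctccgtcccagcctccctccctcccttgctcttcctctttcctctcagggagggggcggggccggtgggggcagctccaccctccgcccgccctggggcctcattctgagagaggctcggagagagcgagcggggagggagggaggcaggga
LYL1: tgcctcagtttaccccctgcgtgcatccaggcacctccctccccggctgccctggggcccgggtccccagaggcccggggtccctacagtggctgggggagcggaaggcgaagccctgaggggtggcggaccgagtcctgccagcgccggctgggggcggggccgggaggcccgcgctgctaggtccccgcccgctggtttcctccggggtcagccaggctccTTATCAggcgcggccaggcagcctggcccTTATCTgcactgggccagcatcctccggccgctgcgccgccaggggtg
KLF1: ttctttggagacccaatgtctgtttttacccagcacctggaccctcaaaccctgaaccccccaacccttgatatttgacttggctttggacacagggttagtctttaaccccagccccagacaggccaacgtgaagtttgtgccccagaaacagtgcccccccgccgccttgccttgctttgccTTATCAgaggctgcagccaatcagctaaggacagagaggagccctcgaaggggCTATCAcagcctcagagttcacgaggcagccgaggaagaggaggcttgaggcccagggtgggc
TAL1 has 1 hexamer, LYL1 and KLF1 have 2 each, and LDB1 has none. GATA1 and GATA2, which also fell after VCR, were searched too, and no window of either holds a hexamer. Of all 35116 windows of this length, 25% hold such a hexamer. The 10 circuit genes have 18 windows for 8 of them (none for LMO2 and ETS1), and TAL1, in 1 of its 2 windows, is the only one with a hexamer. E boxes, the kind of site that bHLH dimers bind, were searched on both strands as CAGATG or CAGCTG, and likewise as CAGGTG. They were found in 1 of these 18 windows, at GATA3, and in 43.7% of all windows. Among the windows printed, that of KLF1 holds 1, left in lower case, and 1 GATA2 window, not printed, holds 3. A match of letters is a description of the window and not a site of binding.

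PTPN21+DMSO against NC+DMSO asks what PTPN21 overexpression does without drug. MYB and TCF12 were lower, 2 of the 7 tested genes, where 6.34% of all genes passed and 3.69% passed as lower. MYB fell by 0.96 on the log2 scale (SE 0.181, limma adjusted p = 0.0162) and TCF12 by 1.24 (SE 0.332, adjusted p = 0.0463). Without overlap between the groups, LMO2 was above (0.48, SE 0.256, adjusted p = 0.261) and LDB1 below (-0.50, SE 0.225, adjusted p = 0.182), and neither passed. Groups without overlap were 33.4% of all genes here. TAL1 (0.18, 95% confidence interval -0.28 to 0.63), TCF3 (-0.38) and RUNX1 (-0.01) overlapped and did not pass. Lineage markers moved in this comparison too: HBA1 (0.82, adjusted p = 0.0127), HBG2 (1.16, adjusted p = 0.00875), HBZ (0.95, adjusted p = 0.0267), HBG1 (0.88, adjusted p = 0.0256) and CD3D (0.72, adjusted p = 0.0235) passed as higher. Their part in the result was not tested.

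The calls were unequal in stability. Over all genes, 735 passed in this comparison, 43 with only the groups compared, and 54 to 1347 with 1 library left out. TCF12 passed in 5 of 18 other settings, with adjusted p from 0.0341 to 0.186, and MYB in 14 of 18, with adjusted p from 0.00995 to 0.0861. Without NC+DMSO replicate 3, which held the highest MYB and TCF12 values, neither passed (MYB -0.77, adjusted p = 0.0518, TCF12 -1.08, adjusted p = 0.175), nor did they without PTPN21+DMSO replicate 1. Longer genes were lower in this comparison, with a median log2 fold change of 0.13 in the shortest of 4 equal classes of exonic length and -0.33 in the longest. Relative to genes in their own length class, TCF12 was at -0.91 and MYB at -0.73. The ratio of MYB to TAL1 was 18.3 ± 3.84 (SD, n = 3) in NC+DMSO and 8.35 ± 2.40 in PTPN21+DMSO, without overlap. The ratio of TCF3 to TCF12 overlapped between these groups.

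PTPN21+VCR against NC+VCR asks what PTPN21 overexpression does under VCR. None of the 7 tested genes passed in limma, where 1.82% of all genes did, and 2 had an unadjusted p under 0.05, against 1980 of all 11591 genes. These were MYB (-0.71, SE 0.181, adjusted p = 0.0697) and TCF3 (-0.56, SE 0.247, adjusted p = 0.267), and in both the PTPN21+VCR libraries lay below all NC+VCR libraries. Libraries without overlap and lower were found for 10.2% of all genes. MYB passed under median ratio scaling (adjusted p = 0.0453) and without NC+DMSO replicate 3 (adjusted p = 0.0302). TAL1 differed by -0.03 (95% confidence interval -0.48 to 0.43), LMO2 by -0.13 (-0.68 to 0.43), LDB1 by -0.30 (-0.79 to 0.19), RUNX1 by 0.40 (-0.31 to 1.10) and TCF12 by -0.02 (-0.74 to 0.70).

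The interaction term tests whether the effect of PTPN21 under VCR differed from that under DMSO. PTPN21 itself was higher by 3.20 on the log2 scale under DMSO and by 2.29 under VCR (difference -0.90, limma adjusted p = 0.240). The part of this in the comparisons was not tested. None of the 7 genes passed in limma, where 0.129% of all genes did, and 1 had an unadjusted p under 0.05, against 1624 of all genes. This was TCF12, with a difference of 1.22 (SE 0.469, adjusted p = 0.284), where the log2 fold change for PTPN21 was -1.24 under DMSO and -0.02 under VCR. The differences of the other 6 ranged from -0.61 for LMO2 to 0.41 for RUNX1, and that of TAL1 was -0.21 (95% confidence interval -0.85 to 0.44). A VCR response of TAL1 that differs between NC and PTPN21 cells was therefore not detected, and this interval does not exclude such a difference.

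Other genes of the pathway were taken from 5 lists, and their calls were not checked under the other settings. Among 7 Id proteins and bHLH relatives, 5 were tested. Id proteins bind E proteins and keep them from DNA. LYL1, ID1 and ID3 fell in NC+VCR, 3 of 5 where 28.3% of all genes passed as lower, and LYL1 and ID1 in PTPN21+VCR, 2 of 5 where 19.3% did. LYL1 was at 34.7, 45.3 and 48.5 FPKM for NC+DMSO and 68.5, 66.9 and 67.9 for PTPN21+DMSO, and after VCR at 14.3, 13.9 and 21.0 in NC cells and 17.1, 14.7 and 18.8 in PTPN21 cells. The change on the log2 scale was -1.34 (SE 0.177, adjusted p = 0.000199) in NC cells and -1.95 (SE 0.177, adjusted p = 1.5e-05) in PTPN21 cells. LYL1 was the only gene of the list that passed with PTPN21 under DMSO, higher by 0.66 (SE 0.177, adjusted p = 0.0468). That is 1 of 5, where 6.34% of all genes passed. ID1 fell by 1.13 (adjusted p = 0.0116) and by 1.09 (adjusted p = 0.0167) on the log2 scale.

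Of 16 LDB1-LMO cofactors and corepressors, 12 were tested. In NC+VCR 5 fell and none rose, and in PTPN21+VCR 4 fell and 1 rose, where 28.3% and 19.3% of all genes passed as lower. CBFA2T3, a corepressor of the ETO family found in the erythroid TAL1 complex, went from 6.45, 8.98 and 15.0 FPKM in NC+DMSO to 0.639, 0.557 and 0.902 in NC+VCR, a log2 fold change of -2.65 (SE 0.397, adjusted p = 0.000455). In PTPN21 cells its log2 fold change was -1.65 (SE 0.397, adjusted p = 0.00892), with 4.66 FPKM in PTPN21+VCR replicate 2 against 0.722 and 1.81 in the others. SSBP3, which binds LDB1 and protects it from degradation, fell by 0.87 (adjusted p = 0.00266) and by 0.76 (adjusted p = 0.00685). SSBP4, of the same family, passed in both comparisons (-0.79, adjusted p = 0.0438, with overlapping libraries, and -1.06, adjusted p = 0.0147). CREBBP, a histone acetyltransferase, fell in NC+VCR (-1.37, adjusted p = 0.0116). It was the 1 gene of 12 that passed with PTPN21 under DMSO (-1.47, adjusted p = 0.0371), where 6.34% of all genes did.

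Of 11 relatives and partners of GATA3, RUNX1, MYB and ETS1, 6 were tested. In NC+VCR 2 fell and 1 rose, and in PTPN21+VCR 3 fell and 1 rose, where 36.2% and 28.5% of all genes passed in either direction. ETS2 was the gene that rose, from 6.62, 5.25 and 6.11 FPKM in NC+DMSO to 11.8, 12.4 and 15.0 in NC+VCR (1.00, SE 0.161, adjusted p = 0.000704) and by 1.09 (SE 0.161, adjusted p = 0.000466) in PTPN21 cells. GATA2 fell with GATA1, by 0.99 (adjusted p = 0.00289) in NC cells and by 0.59 (adjusted p = 0.0463) in PTPN21 cells. ELF1, an ETS family factor, was the 1 gene of 6 that passed with PTPN21 under DMSO (-1.78, SE 0.463, adjusted p = 0.0433), where 6.34% of all genes did. The NC+DMSO libraries of ELF1 spread from 25.9 to 100 FPKM.

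Of 8 genes described as targets of the TAL1 circuit in T-ALL, 4 were tested. ARID5B, a chromatin regulator induced by TAL1 in T-ALL, rose while TAL1 fell. It was at 1.30, 0.689 and 1.73 FPKM in NC+DMSO and at 6.22, 8.05 and 7.55 in NC+VCR (1.91, SE 0.323, adjusted p = 0.00101), and its log2 fold change in PTPN21 cells was 1.99 (SE 0.323, adjusted p = 0.000892). TRIB2, a pseudokinase, fell in NC+VCR (-1.28, SE 0.357, adjusted p = 0.0159) and was at -0.54 (adjusted p = 0.289) in PTPN21 cells. ALDH1A2, a retinoic acid synthesis enzyme, was lower with PTPN21 under DMSO (-1.20, SE 0.308, adjusted p = 0.0421), 1 of 4 where 6.34% of all genes passed. GIMAP7 was at or near 0. None of the 4 E protein targets of thymocytes, PTCRA, RAG1 and RAG2 among them, reached the mean of 1 FPKM needed for testing. In the comparison under VCR and in the interaction, no gene of these 5 lists passed in limma, where 1.82% and 0.129% of all genes did. At an unadjusted p under 0.05 there was 1 gene, of the relatives and partners, under VCR, against 1980 of all 11591 genes. In the interaction there was 1 gene each of the Id, cofactor and target lists, against 1624 of all genes.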

How the data were processed

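Total RNA was sequenced from 12 libraries in 4 groups of 3, grouped by the sample labels. The authors deposited FPKM for 60671 genes, made by an external company. The submitters' processing notes name fastp, Bowtie2 and the mouse build mm10, while the table holds human Ensembl identifiers. The counting program and annotation are not given in the sources used here. Positions and lengths came from GENCODE release 29 (GRCh38), which held 96.3% of the genes.

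The deposited FPKM were analysed as log2(FPKM + 1), over the 11591 genes that averaged 1 FPKM or more. This scale understates the change of low genes. The test was limma 3.58.1 (R 4.3.3) with its intensity trend, fitted as 1 model of the 4 group means, with Benjamini-Hochberg adjustment over all genes tested and a threshold of 0.05, in 5 comparisons. The script was tested on simulated data. With 3 libraries in each group, the smallest exact permutation p is 0.1, so none was used. Groups were called not overlapping when every library of 1 lay above every library of the other. Depth was estimated from 9174 genes with 1 exon and over 500 bases: between 40.2% and 46.4% of low values lay within 0.1 of a whole step, against 20% by chance. Depth limits mainly the low values.

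The members and lists were chosen with earlier results of these data known. Genes named are all members, PTPN21 and, of each list, up to 4 genes past the threshold in a comparison without overlap, by largest change. Housekeeping, T cell receptor and fetal globin genes, ratios and length classes were added after seeing the data. Alternatives were a pseudocount of 0.1, no filter, TPM scaling, median ratio scaling, a replicate block, only the groups compared and leaving out each library. Python 3.11.15, pandas 2.3.3, numpy 2.4.6 and matplotlib 3.10.9 served for tables and plots. Promoter windows came from RefSeq (GRCh38.p14). Some genes of the lists are not reported here by name.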

Additional observations from a re-analysis of the deposited data

How the results depend on the processing

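Of 203 values of single circuit genes under other settings with all libraries, 187 kept their direction and side of the threshold, and of 420 with 1 library left out, 388 did. The number of circuit genes that passed for PTPN21 under DMSO, 2, was 1 with a pseudocount of 0.1, 1 under median ratio scaling, 0 without a filter, 0 with only the groups compared, and 0 to 2 with 1 library left out. The number under VCR, 0, was 1 under median ratio scaling and 0 to 1 with 1 library left out. For VCR in PTPN21 cells the number, 5, was 4 to 5 under other settings with all libraries and 4 to 6 with 1 library left out. For VCR in NC cells it was 3 instead of 6 under median ratio scaling, which moved the median of all genes from -0.36 to -0.03. Among genes that passed, that scaling also moved the share that were higher from 21.9% to 56.9% in this comparison, from 41.8% to 75.9% for PTPN21 under DMSO and from 32.3% to 51.5% for VCR in PTPN21 cells. TPM scaling gave 16.2% and 22.0% in the first 2. The cause was not tested.

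Replicate numbers did not pair the libraries: over 18 pairs with the same number, the correlation of deviations ran from -0.145 to 0.0583. With the replicate block, the counts were 1 for PTPN21 under DMSO, 0 under VCR, 6 and 5 for VCR in NC and PTPN21 cells and 0 for the interaction.

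Directions turned for small differences. Under median ratio scaling RUNX1 was 0.16 for PTPN21 under DMSO and LDB1 -0.0056 in the interaction. With 1 library left out, the difference under VCR ran from -0.23 to 0.099 for TAL1, from -0.29 to 0.16 for LMO2 and from -0.31 to 0.26 for TCF12. RUNX1 for PTPN21 under DMSO ran from -0.12 to 0.13, and TCF3 in the interaction from -0.44 to 0.072. TAL1 and LDB1 passed in both VCR comparisons under all 18 alternatives.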
